A study of Homo sapiens with 4 samples.

Results

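Centrosome and centriole genes were examined in A549 cells given the microRNA miR-509-3p. They were chosen by symbol: every gene named CEP followed by a number, every gene whose symbol begins with TUBG, and a list of named centriole, scaffold and augmin genes. On the array, 63 symbols matched, of which 54 had a probe detected above background (detection p under 0.01) on at least 2 of 4 arrays. These 54 were measured among 10239 genes in all. One group of cells had been transfected with a miR-509-3p mimic and the other with negative control mimics, both with Lipofectamine RNAiMAX, and total RNA was taken 24 hours later. A549 is an established line from a human lung adenocarcinoma, so both groups carry that line's own genetic background. Each group held 2 Illumina bead arrays. Whether the 2 arrays of a group stem from separate cultures is not labelled, and the p-values cover no more than the variation from array to array, which could be purely technical.

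The centrosome organises microtubules and is built on a pair of centrioles. Each centriole is copied once per cell cycle under the kinase PLK4, which with STIL and SASS6 starts the cartwheel of the daughter. Pericentriolar material around the centrioles holds gamma-tubulin complexes that nucleate microtubules, and the older centriole bears appendages that dock it to the membrane as the base of a cilium. A microRNA pairs through its seed, the bases near its 5′ end, with sites in messenger RNAs, and paired transcripts are usually lowered.

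The mature sequence is shown because the mimic is the only agent that differs between the groups. RefSeq (GRCh38.p14) gives the same mature sequence for 3 genes on the minus strand of chromosome X, MIR509-2 at chrX:147258775-147258796, MIR509-3 at chrX:147259662-147259683 and MIR509-1 at chrX:147260550-147260571. Capitals mark the seed, bases 2 to 8 counted from the 5′ end. The other arm of the MIR509-1 and MIR509-2 hairpins, also 5′ to 3′, is given to show that its seed differs. That of MIR509-3, hsa-miR-509-3-5p, differs in sequence from hsa-miR-509-5p but shares its seed, and is not shown.
hsa-miR-509-3p: uGAUUGGUacgucuguggguag
hsa-miR-509-5p: uACUGCAGacaguggcaauca
Among the mature human microRNAs of that table, hsa-miR-509-3p was the 1 name with this seed. Transcript sequences of the centrosome genes were not searched for matches to it.

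Centrosome genes moved in both directions with the mimic. Of the 54, 13 rose, 6 fell and 35 did not pass the test (adjusted p under 0.05 over all genes tested). The 6 include CEP112, which was kept through the control arrays alone and so had to be lower with the mimic. CEP41 rose most, by 1.34 ± 0.11 on the log2 scale (difference ± SE, 2 arrays in each group), and PLK4 fell by 0.93 ± 0.08. Among all genes tested, 34.4% were called, 18.0% higher and 16.5% lower. The centrosome genes were called in 35.2% of cases, 24.1% higher and 11.1% lower, so their overall share was close to that of all genes. Their median log2 difference was 0.16, beside 0.04 over all genes. The mimic and control values did not overlap for 40 of the 54, or 29 above and 11 below, where 72.9% of all genes had no overlap, 40.1% above and 32.8% below. All 19 called genes were among these 40, which a call from the same arrays makes likely.

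**Figure D1:**
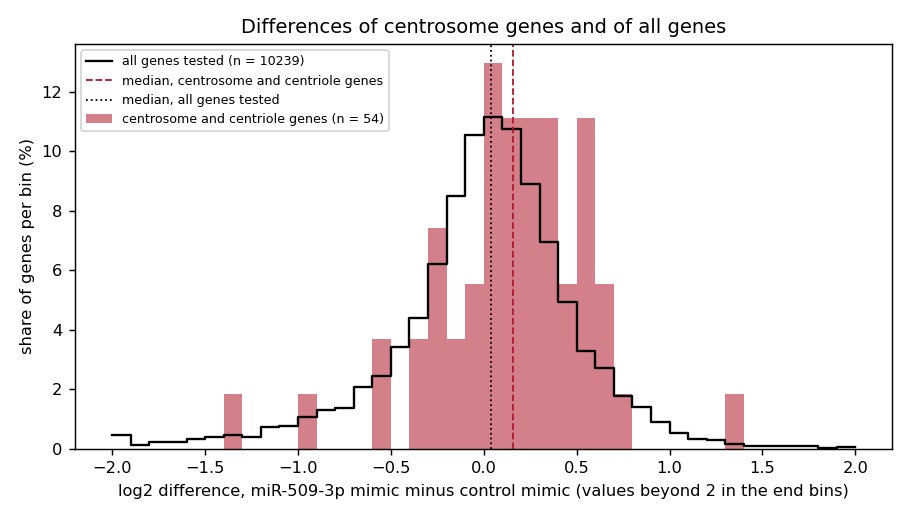
Share of genes (%) per bin of 0.1 in the log2 difference, miR-509-3p mimic minus control mimic, for the 54 centrosome and centriole genes (bars) and for all 10239 genes tested (line). The dashed line marks the median of the centrosome genes, 0.16, and the dotted line that of all genes, 0.04, and both distributions spread to either side of 0.

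The arrays were alike in quality. Between 33.7% and 34.7% of the 47320 probes were detected on each array. Normalized log2 values correlated across genes, which are not independent replicates, at r = 0.996 between the mimic arrays and 0.994 between the control arrays, and at 0.967 to 0.968 across groups. The A549 label was checked on 12 epithelial markers, of which 8 were measured. The lung lineage genes NKX2-1, SFTPB and SFTPC were detected on no array, and KRT18 on too few to be kept. The summed deposited signal of the 12 markers was 161388 to 167256 on the mimic arrays and 178154 to 180294 on the control arrays. Of the fibroblast, endothelial and leukocyte markers listed, 5 of 7, 4 of 5 and 3 of 6 on the array were detected on none, including DCN, PECAM1, VWF, PTPRC and CD3E. The fibroblast markers COL1A1 and THY1 and the endothelial marker ESAM were measured. The summed fibroblast signal was 1721 to 1726 on the mimic arrays and 1451 to 1558 on the control arrays. The summed endothelial signal was 848 to 881 on the mimic arrays and 1065 to 1117 on the control arrays. The leukocyte markers CD14, CD68 and ITGAM were measured, and the summed leukocyte signal was 7354 to 8215 on the mimic arrays and 5166 to 5827 on the control arrays. The part of these marker differences in the results was not tested.

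Genes listed under centriole duplication split in direction. Of 9 measured, 2 rose, 3 fell, CEP78 among them, and 4 did not pass, or 55.6% called, beside 34.4% of all genes tested. This short list was drawn up with earlier results known and was not tested as a set. PLK4, the master kinase of duplication, had normalized log2 signals of 10.16 and 10.25 on the mimic arrays, against 11.13 and 11.14 on the control arrays. Both mimic values lay below both control values, as they did in 32.8% of all genes tested. The fall of 0.93 ± 0.08 is 1.90-fold (adjusted p = 0.00384), and the deposited signals were 1229 and 1402 with the mimic, against 2368 and 2545 with the control.

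SASS6 encodes the protein of the central cartwheel. Its signals were 8.98 on both mimic arrays, against 8.42 and 8.48 on the control arrays, so SASS6 rose by 0.53 ± 0.08 (adjusted p = 0.0105). A second SASS6 probe, detected on 1 array of each group, differed by 0.07 ± 0.21 and did not pass. With the probes of each gene averaged, SASS6 itself did not pass, at a log2 difference of 0.30 (adjusted p = 0.116).

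STIL, the partner of SASS6 that PLK4 phosphorylates, had 10.88 and 11.04 on the mimic arrays, against 11.26 and 11.14 on the control arrays. The groups did not overlap, but the difference of -0.24 ± 0.10 did not pass (adjusted p = 0.130), with a 95% interval from -0.51 to 0.02.

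CEP152, CEP63, CEP57 and CEP192 form the scaffold from which PLK4 acts, and they did not move as 1. CEP63 had 9.77 and 9.91 on the mimic arrays, against 10.38 and 10.37 on the control arrays, and fell by 0.53 ± 0.09 (adjusted p = 0.0148). CEP152, its direct partner, had 8.83 and 8.65 on the mimic arrays, against 8.41 and 8.26 on the control arrays. CEP152 rose by 0.41 ± 0.11 (adjusted p = 0.0458), close to the threshold, and its second probe differed by 0.36 ± 0.11 without passing. CEP57 had a wide difference of 0.64 ± 0.19 that did not pass (adjusted p = 0.0605). CEP192, which brings PLK4 to the centriole, had 10.98 on both mimic arrays, against 10.94 and 10.81 on the control arrays. Its difference of 0.10 ± 0.09 did not pass, and the 95% interval from -0.12 to 0.33 held 0. CEP78, a centriolar protein placed here with the duplication genes, had 10.63 and 10.59 on the mimic arrays, against 10.95 and 10.87 on the control arrays. CEP78 fell by 0.30 ± 0.08 (adjusted p = 0.0448), and its second probe differed by -0.26 ± 0.09 without passing. CEP85, which binds STIL, differed by 0.04 ± 0.09 and did not pass.

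**Figure D2:**
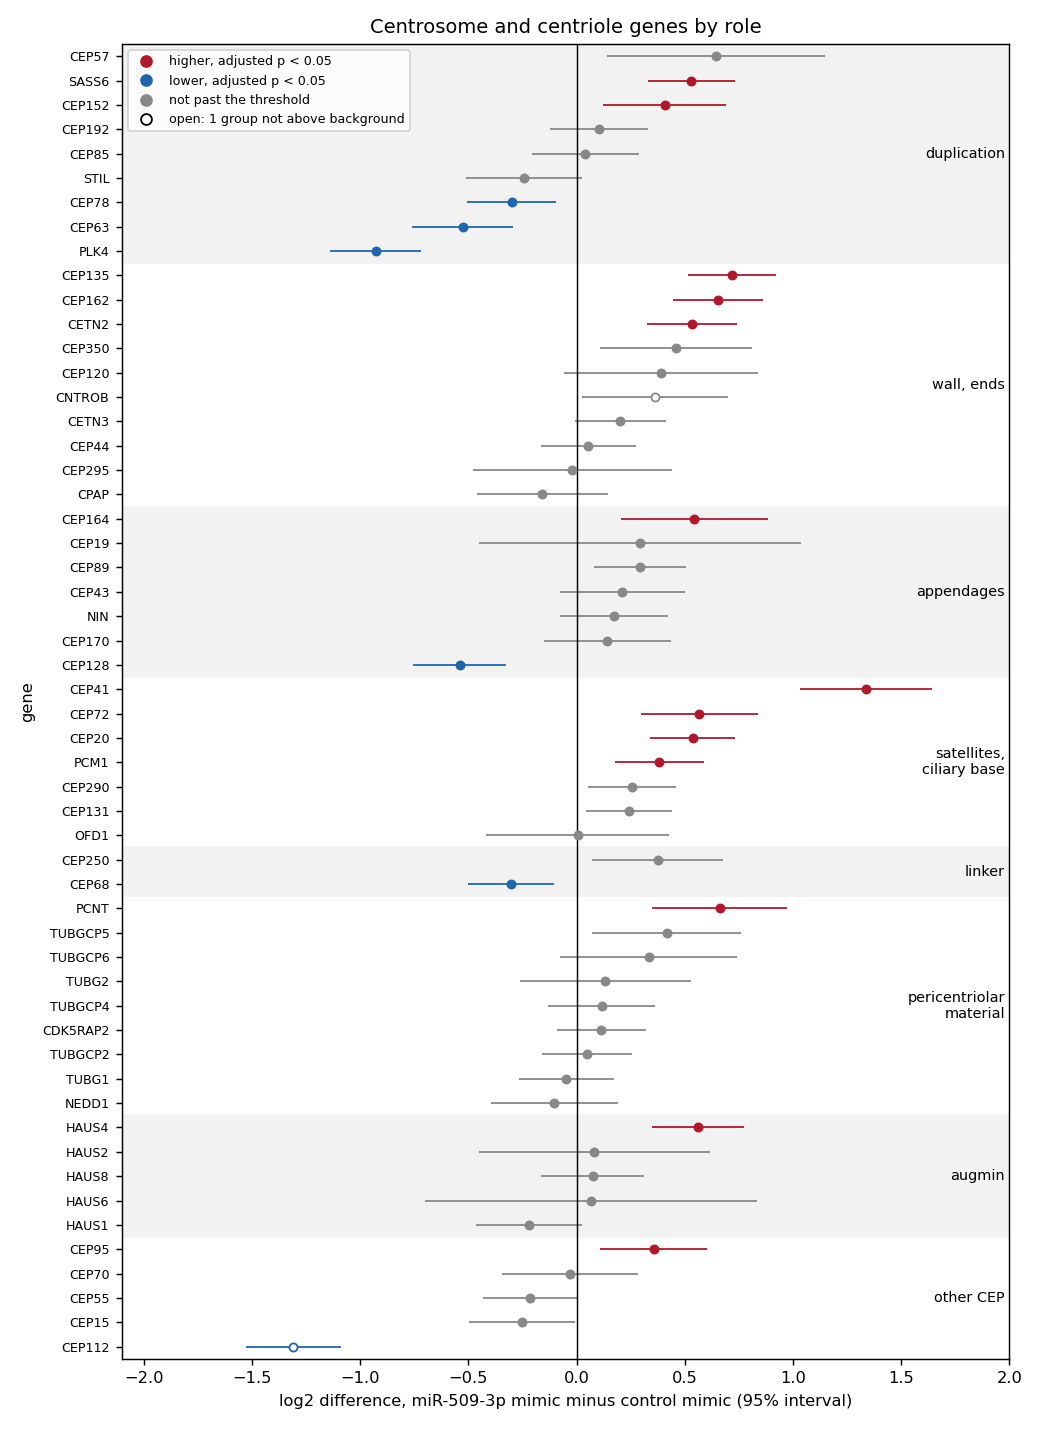
Log2 difference, miR-509-3p mimic minus control mimic, with its 95% interval, for the 54 centrosome and centriole genes, grouped by role. Red marks the 13 genes that rose and blue the 6 that fell at an adjusted p under 0.05, grey the 35 that did not pass, and open points 2 genes, CEP112 and CNTROB, that were not above background in 1 group. CEP41 lies farthest to the right and CEP112 and PLK4 farthest to the left.

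Of 10 genes listed under the centriole wall and its ends, a list without CEP78, 3 rose, 0 fell and 7 did not pass. The share called was 30%, beside 34.4% of all genes tested. CEP135, which joins the cartwheel to the microtubule wall, had 9.97 and 9.90 on the mimic arrays, against 9.21 and 9.22 on the control arrays. Values within each group lay close together, and CEP135 rose by 0.72 ± 0.08, or 1.65-fold (adjusted p = 0.00569). CEP162, which marks the distal end of centrioles for assembly of the ciliary transition zone, had 8.58 and 8.66 on the mimic arrays, against 7.96 and 7.97 on the control arrays. CEP162 rose by 0.65 ± 0.08 (adjusted p = 0.00732). CETN2, a calcium-binding centrin of the centriole lumen, had 14.04 and 14.12 on the mimic arrays, against 13.54 and 13.55 on the control arrays. CETN2 rose by 0.53 ± 0.08 (adjusted p = 0.0112), and its relative CETN3 differed by 0.20 ± 0.08 without passing.

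Among the genes of this group that did not pass, CPAP (CENPJ), which controls centriole length, had 9.59 and 9.55 on the mimic arrays, against 9.60 and 9.86 on the control arrays. Its difference was -0.16 ± 0.11. CEP350, CEP120, CEP44 and CEP295 differed by 0.46 ± 0.13, 0.39 ± 0.17, 0.05 ± 0.08 and -0.02 ± 0.17. CEP350 lay near the threshold (adjusted p = 0.0581) and passed with the authors' processed values (adjusted p = 0.0232). CEP120 works with CPAP in elongation, and CEP295 helps centrioles convert to centrosomes. CNTROB, a daughter centriole protein, was below the detection threshold on both control arrays and so entered through the mimic arrays alone. Since this choice of probes fixed its direction, the bound of 1.10-fold higher with the mimic is no support for a difference. CNTROB did not pass (adjusted p = 0.0912, with means of 6.91 on the mimic and 6.55 on the control arrays).

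Appendage genes had 1 rise and 1 fall among 7, or 28.6% called, beside 34.4% of all genes tested. CEP164, a distal appendage protein needed for docking at the membrane, had 8.02 and 8.18 on the mimic arrays, against 7.69 and 7.42 on the control arrays. CEP164 rose by 0.54 ± 0.13 (adjusted p = 0.0348). CEP128, of the subdistal appendages, had 7.65 and 7.75 on the mimic arrays, against 8.26 and 8.22 on the control arrays, and fell by 0.54 ± 0.08 (adjusted p = 0.0118). The other appendage genes did not pass. CEP89, a distal appendage protein, differed by 0.29 ± 0.08 (adjusted p = 0.0513), CEP43 by 0.21 ± 0.11, CEP170 by 0.14 ± 0.11 and NIN, the subdistal anchor ninein, by 0.17 ± 0.09. CEP19 differed by 0.29 ± 0.28 on its brightest probe, whose control arrays read 11.44 and 10.64. A further CEP19 probe read 7.82 and 7.76 on the mimic arrays and 7.39 and 7.13 on the control arrays. It differed by 0.53 ± 0.11 and passed when adjusted over all kept probes (adjusted p = 0.0312). The other further probe differed by 0.16 ± 0.23 without passing (adjusted p = 0.637), so the probes of this gene gave different calls.

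Of 7 genes of the centriolar satellites and the ciliary base, 4 rose, 0 fell and 3 did not pass. The share called higher was 57.1%, beside 18.0% of all genes tested. A list this short, drawn up with earlier results known, was not tested as a set. CEP41, which is needed for glutamylation of ciliary tubulin, had 10.70 on both mimic arrays, against 9.23 and 9.50 on the control arrays. Its deposited signals were 1708 and 1860 with the mimic, against 746 and 907 with the control. CEP41 rose by 1.34 ± 0.11, or 2.52-fold (adjusted p = 0.00386), and a second probe rose by 1.35 ± 0.12. CEP72, a satellite protein, had 9.06 and 8.99 on the mimic arrays, against 8.36 and 8.56 on the control arrays, and rose by 0.57 ± 0.10 (adjusted p = 0.0181). CEP20, a small protein of satellites and ciliary bases, had 12.34 and 12.31 on the mimic arrays, against 11.80 and 11.78 on the control arrays, and rose by 0.54 ± 0.07 (adjusted p = 0.00982). PCM1, the scaffold on which satellites assemble, had 12.39 and 12.35 on the mimic arrays, against 12.02 and 11.96 on the control arrays. PCM1 rose by 0.38 ± 0.08 (adjusted p = 0.0244), and its second probe rose by 0.42 ± 0.08. In each of these 4 genes both mimic values lay above both control values, as they did in 40.1% of all genes tested. CEP290, a transition zone protein, differed by 0.26 ± 0.08 (adjusted p = 0.0632), the satellite gene CEP131 by 0.24 ± 0.07 (adjusted p = 0.0684) and OFD1 by 0.01 ± 0.16, and these 3 did not pass. The sign for OFD1 was negative in 3 alternatives, at -0.04 with median scaling, -0.07 without control 1 and -0.19 without mimic 2.

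**Figure D3:**
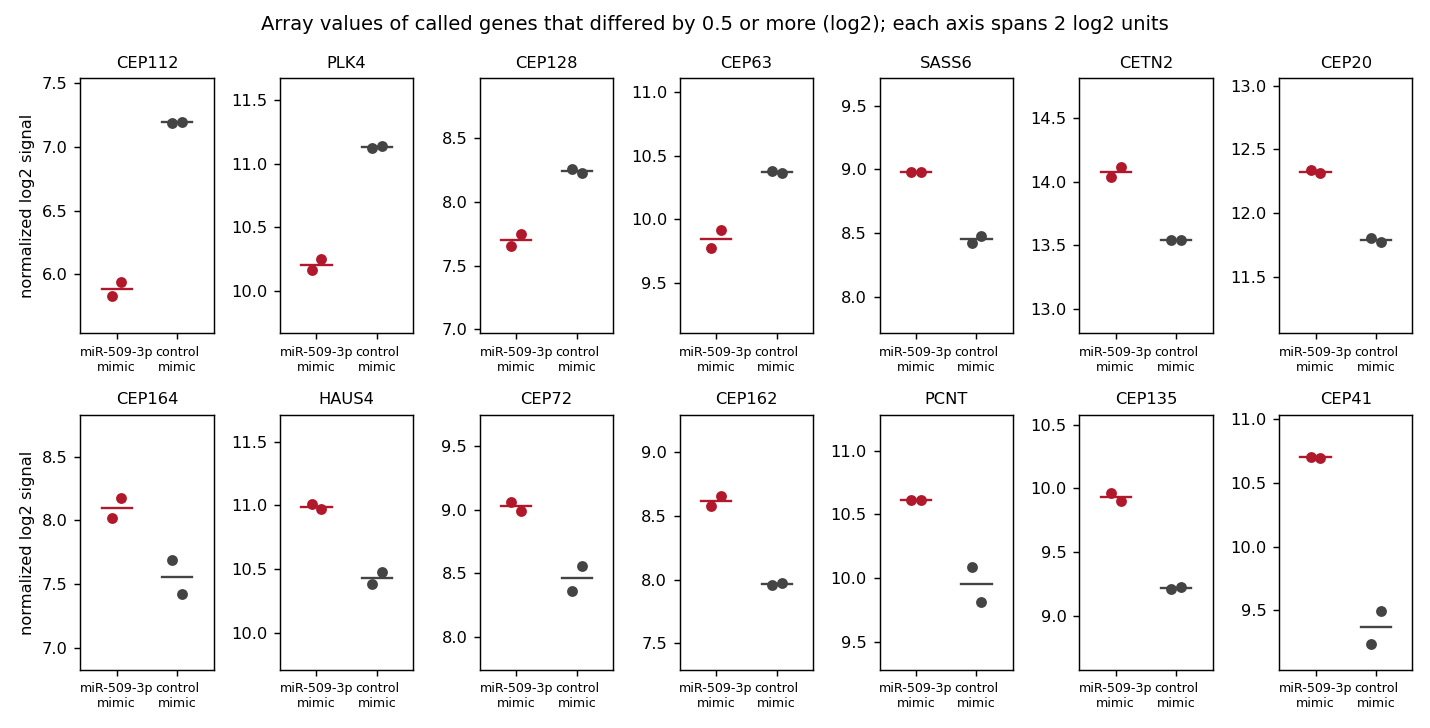
Normalized log2 signal on each of the 2 miR-509-3p mimic arrays (red, left) and the 2 control mimic arrays (grey, right) for the 14 called genes that differed by 0.5 or more; bars mark group means and each axis spans 2 log2 units. The panels hold only called genes, so the gap between the 2 groups follows from how they were chosen. The mimic is lower for CEP112, PLK4, CEP128 and CEP63 and higher for the other 10. CEP112 was kept through the control arrays alone.

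In the pericentriolar material, PCNT rose and the other 8 of 9 genes did not pass, or 11.1% called, beside 34.4% of all genes tested. PCNT encodes pericentrin, a scaffold that holds gamma-tubulin complexes. It had 10.61 on both mimic arrays, against 10.09 and 9.81 on the control arrays, and rose by 0.66 ± 0.12, or 1.58-fold (adjusted p = 0.0174). CDK5RAP2, a second scaffold, had 11.59 and 11.54 on the mimic arrays, against 11.48 and 11.42 on the control arrays, and its difference of 0.11 ± 0.08 did not pass. The 2 further CDK5RAP2 probes differed by 0.07 ± 0.19 and -0.21 ± 0.09, also without passing.

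Gamma-tubulin itself did not pass. TUBG1 had 13.32 and 13.20 on the mimic arrays, against 13.32 and 13.30 on the control arrays, a difference of -0.05 ± 0.08 with a 95% interval from -0.27 to 0.17. Its 3 further probes differed by -0.13 ± 0.20, -0.03 ± 0.09 and 0.12 ± 0.07. TUBG2, a near-identical paralog whose signal could be shared, had 9.55 and 9.41 on the mimic arrays, against 9.53 and 9.17 on the control arrays, and differed by 0.13 ± 0.15. The groups overlapped for both gamma-tubulin genes. The ring complex subunits TUBGCP2, TUBGCP4, TUBGCP5 and TUBGCP6 differed by 0.05 ± 0.08, 0.12 ± 0.09, 0.42 ± 0.13 and 0.33 ± 0.15. NEDD1, which recruits the ring complex to centrosomes and spindles, differed by -0.10 ± 0.11.

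Augmin is the complex that branches new microtubules from existing ones in the spindle. Of its 5 listed subunits, HAUS4 rose and 4 did not pass, or 20% called, beside 34.4% of all genes tested. HAUS4 had 11.01 and 10.97 on the mimic arrays, against 10.38 and 10.47 on the control arrays, and rose by 0.56 ± 0.08 (adjusted p = 0.0106). HAUS1, HAUS2, HAUS6 and HAUS8 differed by -0.22 ± 0.09, 0.08 ± 0.20, 0.07 ± 0.29 and 0.07 ± 0.09. HAUS6 spread widely within groups, from 7.38 to 8.01 on the mimic arrays and from 7.36 to 7.90 on the control arrays.

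The linker that holds the 2 centrosomes together before mitosis had 2 genes. CEP68 had 7.18 and 7.16 on the mimic arrays, against 7.50 and 7.45 on the control arrays, and fell by 0.30 ± 0.07 (adjusted p = 0.0395). This call ended in 12 of 16 alternatives, among them the authors' processed values. CEP250, which anchors the linker to the centriole, was detected on 1 control array, and its difference of 0.37 ± 0.11 did not pass (adjusted p = 0.0666).

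The remaining CEP genes were CEP112, CEP95, CEP55, CEP70 and CEP15. CEP112 was read at 5.83 and 5.94 on the mimic arrays, against 7.19 on both control arrays. Its probe was below the detection threshold on both mimic arrays, so it entered through the control arrays alone, and CEP112 was at least 1.36-fold lower with the mimic (adjusted p = 0.00258). Since this choice of probes fixed its direction, that p is no support for a difference. Without any filter on dim probes its adjusted p was 0.0119. Without background correction its measured log2 difference was -0.61, in place of -1.31. CEP95 had 9.79 and 9.94 on the mimic arrays, against 9.47 and 9.55 on the control arrays, and rose by 0.36 ± 0.09 (adjusted p = 0.0451). CEP55, which acts in the final cut between daughter cells, differed by -0.22 ± 0.08, CEP15 by -0.25 ± 0.09 and CEP70 by -0.03 ± 0.12, and these 3 did not pass.

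Further probes bear on how firm these values are. Of the 54 genes, 13 had 2 or more kept probes, with 21 probes beside those used. The difference had the sign of the probe used in 17 of the 21 and the other sign in 4, which belonged to CDK5RAP2, HAUS8, NIN and TUBG1. All 4 genes were among those that did not pass. The further probes of the 5 called genes that had one, CEP41, PCM1, CEP78, CEP152 and SASS6, had the same sign.

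**Figure D4:**
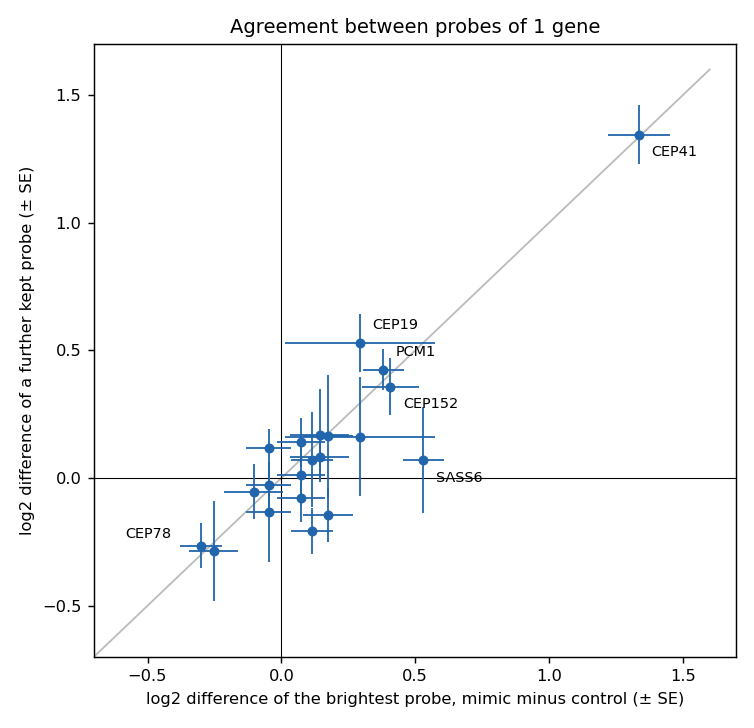
Log2 difference, miR-509-3p mimic minus control mimic, of each further kept probe against that of the brightest probe of the same gene, for 21 probes of 13 genes, with bars of 1 SE and a grey line of equality. CEP41 lies on the line at 1.34 and 1.35, and SASS6 lies below it, at 0.53 on its brightest probe and 0.07 on the further one.

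The 35 genes that did not pass are not shown to be unaffected. The 95% interval lay within 0.5 either way on the log2 scale for 21 of them. Their differences were positive in 26 and negative in 9. Some lay near the threshold, and with the authors' processed values CEP350, CEP57 and TUBGCP5 passed as higher. With 1 array left out, its group kept a lone array, assumed to vary like the other group. More calls ended without a mimic array than without a control array, and the cause was not tested. Without mimic 1, 1 gene was called higher and 2 lower, and 16 of the 19 calls ended, with adjusted p-values from 0.0523 to 0.188. Without mimic 2, 2 genes were higher and 2 lower, and 15 calls ended, with adjusted p-values from 0.0565 to 0.186. Without control 1, 11 genes were higher and 3 lower, and without control 2, 10 were higher and 3 lower. CEP152, CEP63, CEP68, CEP78, CEP95 and PCM1 were lost with any 1 of the 4 arrays left out, CEP72 without control 1, mimic 1 or mimic 2, CEP164 without control 2, mimic 1 or mimic 2, and CEP135 without mimic 1. CEP128, CEP162, CEP20, CETN2, HAUS4, PCNT and SASS6 were lost without either mimic array. CEP41 and PLK4 passed with any 1 array left out. Over all alternatives, the calls of PCM1, CEP78 and CEP95 each ended in 8 of 16, that of CEP152 in 7, CEP164 in 6 and CEP63 in 5. With median scaling, the calls of CEP152, CEP68, CEP78, CEP95 and PCM1 ended. All 19 kept their sign in every alternative that could measure them, which many of the alternatives made certain. The groups did not overlap for these genes, so leaving out 1 array could not reverse a sign. Changes of filter, variance model or pairing left the differences of their probes as they were.

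Of the 63 symbols on the array, 9 had no kept probe. Of these, 2 were pseudogenes, CEP170P1 and CEP192P1. The other 7 were CEP126, CEP170B, CEP57L1, CEP76, CEP85L, CEP97 and TUBGCP3. CEP76, which limits repeated duplication, was detected on 1 mimic array and no control array, with deposited signals of 265 and 242 on the mimic arrays and 248 and 223 on the control arrays. CEP97, which caps centrioles with CCP110, was detected on no array. Nothing is said here of how these genes responded.

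Other genes of centrosome biology also moved in both directions. Of 56 listed, 45 were measured, of which 11 rose, 3 fell and 31 did not pass, with a median log2 difference of 0.09. The share called was 31.1%, 24.4% higher and 6.67% lower. Over all genes tested it was 34.4%, 18.0% higher and 16.5% lower. KIF24, a kinesin that acts with CCP110 at the mother centriole, had 8.72 and 8.65 on the mimic arrays, against 7.63 and 7.62 on the control arrays. It rose by 1.06 ± 0.08 (adjusted p = 0.00296). CCP110, which caps the distal end of centrioles and is chosen here after its value was seen, had 10.76 and 10.85 on the mimic arrays, against 9.95 and 9.91 on the control arrays, and rose by 0.87 ± 0.08 (adjusted p = 0.00441). The augmin subunits HAUS5 and HAUS7, also chosen after their values were seen, rose by 0.91 ± 0.10 and 0.37 ± 0.08. HAUS5 read 6.87 and 6.86 on the control arrays, close to the lowest detected value of 6.76 on average, so its size is uncertain. Larger than the HAUS5 rise was that of PAFAH1B1, by 0.97 ± 0.07, and LRRCC1 rose by 0.81 ± 0.12. The 3 that fell were the mitotic kinase PLK1, by 0.50 ± 0.09, the spindle pole gene ASPM, by 0.44 ± 0.08, and CCNF, whose product marks CCP110 for destruction, by 0.38 ± 0.08.

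Transcripts of several centrosome genes follow the cell cycle, so cycle genes are set beside them. Of 20 listed, 19 were measured, of which 7 fell, 1 rose and 11 did not pass, with a median log2 difference of -0.17. In shares, 42.1% were called, 36.8% lower and 5.26% higher. Over all genes tested 34.4% were called, 16.5% lower and 18.0% higher. CDK2, which permits centrosome duplication as cells enter S phase, had 9.74 and 9.66 on the mimic arrays, against 11.98 and 12.06 on the control arrays, and fell by 2.32 ± 0.08. FOXM1, which drives mitotic genes, had 9.34 and 9.43 on the mimic arrays, against 10.66 and 10.81 on the control arrays, and fell by 1.35 ± 0.09. The others that fell were CCND1, CDC20, CCNA2, CDK1 and CCNE1. Their differences were -0.68 ± 0.07, -0.43 ± 0.08, -0.43 ± 0.09, -0.31 ± 0.08 and -0.31 ± 0.07. CCNB2, the 1 that rose, differed by 0.40 ± 0.10. MKI67 and TOP2A, markers of dividing cells named outside the rule for this list, differed by 0.25 ± 0.11 and 0.09 ± 0.08 and did not pass. In RNA from whole cultures, fewer cells in a stage of the cycle and less RNA per cell cannot be told apart, and the part of the cycle genes in the centrosome results was not tested.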

How the data were processed

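Total RNA of A549 cells, on 4 arrays in all, was hybridised as biotinylated cRNA, per the labels' protocols. The authors deposited a linear probe intensity for each array, with no normalization across arrays, made with GenomeStudio 2009.2 per the submitters' processing notes, and beside each a detection p-value. A second table that the authors deposited holds processed log2 values, used as an alternative; the steps behind it: not given in the sources used here.

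Signals were taken through the neqc steps of limma 3.58.1 in R 4.3.3 (normexp background correction with the detection p-values, offset 16, quantile normalization, log2). A probe was kept if 2 or more arrays detected it (p under 0.01), which left 16561 of 47320. The platform annotation gave 1 gene name for 30113 probes, updated through the RefSeq gene table (GRCh38.p14, 30092 matched). The brightest kept probe stood for a gene, and 3133 kept probes without a single name were not tested. The array files name no genome build, so gene coordinates are not given. limma (lmFit, eBayes, 2 residual and 2.48 prior degrees of freedom) was fitted on all kept probes with the group as the only term, and Benjamini-Hochberg adjustment ran over 10239 genes. A gene undetected in 1 group is given as a bound against the lowest detected signal. The number of arrays limits the precision.

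The members and lists were chosen with earlier results of these data known, and CEP112 was moved between role groups after its values were seen. Every member is named; called members that differed by 0.5 or more, and listed core genes, are given by array; for the other lists, those called at 1 or more were to be named. Same-numbered arrays of the 2 groups deviated with a correlation of -0.057 over genes. The fit was run on simulated data with independent normal noise and far fewer changed genes than were called here. That setting differs from these arrays, so it does not vouch for the calls. Figures were drawn with matplotlib 3.10.9. Alternatives were other background, scaling, filter, variance, probe and pairing choices, the authors' values and leaving out each array.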

Additional observations from a re-analysis of the deposited data

How the results depend on the processing

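The counts of centrosome genes called higher and lower, 13 and 6, stayed within 1.5 times in 11 of the 12 alternatives that kept all arrays. Without a filter on dim probes, where 20039 genes were adjusted for, they were 7 and 3, beside 768 and 961 over all genes, and with detection p under 0.05 on 1 array 1124 of all genes were higher and 1233 lower. Median scaling gave 1312 higher and 1662 lower over all genes, so that more were lower than higher, beside 1839 and 1685. Leaving out 1 array gave 1 to 11 centrosome genes higher and 2 to 3 lower, and 310 to 1140 and 607 to 1089 over all genes, and a median log2 difference of the centrosome genes from 0.11 to 0.24. That median, 0.16, was 0.11 without background correction, 0.12 with the authors' processed values and 0.20 with detection p under 0.05 on 1 array. The replicate block gave 11 higher and 4 lower, ending the calls of CEP164, CEP68, CEP78, CEP95 and PCM1 and adding CEP57. Same-numbered deviations correlated at -0.057 over all genes and 0.198 over the centrosome genes, and 2 pairs are too few to show pairing. Fitting the variance on gene rows alone, which was added once the data had been seen, gave 16 and 6. Of 861 gene values under alternatives, 75 lost a call, 32 gained one and 0 of the called values changed sign; 12 genes changed sign in at least 1 alternative while passing in neither fit. Many of the alternatives could not reverse the sign of a called gene, so the 0 among called values says little. CEP112 was not measured where all 4 arrays had to detect a probe. Signal over background limits CEP112, CNTROB and CEP250. It also sets the sizes of other dim genes. Without background correction CEP164, CEP128, CEP162 and CEP68 differed by 0.31, -0.32, 0.42 and -0.15, in place of 0.54, -0.54, 0.65 and -0.30. With the authors' processed values the first 3 differed by 0.33, -0.34 and 0.44. The set that differed by 0.5 or more thus depends on this step. The bright gene CETN2 stayed at 0.53 without background correction. Except where given, the cause of a change was not tested.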
